A study of Mus musculus with 160 samples.

Results

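The induced hemogenic endothelial cells (iHECs) of this study were divided by the transcript of Itga2b, the gene of the surface protein CD41. Each of the 65 iHECs was grouped by its own Itga2b level, with 26 cells above 1 TPM (transcripts scaled to a fixed total per cell) and 39 cells at 1 TPM or less, out of 160 single cells in the whole data set. These are called Itga2b+ and Itga2b- iHECs. Since the cells were selected on a measured value, the Itga2b levels themselves are a description and support nothing.

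Hemogenic endothelium is the embryonic vessel wall that gives rise to blood, and the passage of its cells into blood is known as the endothelial-to-hematopoietic transition. CD41 is integrin alpha IIb. It pairs with integrin beta 3, encoded by Itgb3, to form the fibrinogen receptor of platelets, and it is also among the earliest surface marks of cells that leave the endothelium for the blood fate.

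The cells were of the C57BL/6 strain and came from pluripotent stem cells. According to the methods, the line carried Runx1 and Hoxa9 in a single cassette at the Rosa26 locus that doxycycline switches on. Every group compared here shares the cassette and was cultured with the drug, and TPM per gene does not tell a transgene from the endogenous gene. The iHECs had been sorted as CD31+CD41lowCD45-c-kit+CD201high. The remaining 95 cells were induced hematopoietic progenitor cells (iHPCs) grown on OP9-DL1 stromal cells and collected at day 14 (21 cells), day 17 (18 cells) or day 21 (56 cells). According to the paper, all iHPCs were sorted as CD45+, the opposite of the iHEC gate. Those of day 14 and day 17 were also sorted as lacking lineage markers, and those of day 21 as c-kit+CD127+. Because all iHECs had passed a gate on low CD41 protein, an Itga2b- cell is a cell with little or no Itga2b transcript in the table, not a cell shown to lack CD41 on its surface. The labels name no culture, so each group is 1 sample, and cells are not replicates of it. For this reason no test was made, and the values below are means ± SD between cells, shares of cells and differences. Exact 95% intervals of shares cover counting error only, and count each column as a separate cell. The columns iHEC_5 and iHEC_6, both Itga2b+, had near-equal values, with Itga2b at 21.3 and 21.7 TPM and 6232 and 6252 genes above 1 TPM. The columns iHEC_15 and iHEC_16 were alike in Lmo2 and Emcn but lay on opposite sides, with Itga2b at 1.97 and 0 TPM. Whether the columns of such a pair come from separate cells was not tested.

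The label of the cells was checked against its markers. Cdh5 (VE-cadherin, the junction protein of endothelium) was above 1 TPM in 63 of 65 iHECs, Pecam1 (CD31) in 64 and Runx1 in 59. Ptprc, which encodes the CD45 that the gate excluded, was above 1 TPM in 1 iHEC, an Itga2b+ cell. Of these genes only Pecam1 and Ptprc belong to the gate, and their transcripts followed it. Itga2b, also a gate gene, was above 1 TPM in only 26 of 65 iHECs. Kit and Procr, the other gate genes, are taken up further below by mean level only. Gata2, a blood transcription factor outside the gate, was above 1 TPM in 26 of 65. The cell with Ptprc, iHEC_64, had Cdh5 below 1 TPM. It also had the highest Itga2b+ levels of Nfe2, Pf4 and Fcer1g given below.

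Among Itga2b+ iHECs the lowest level of Itga2b was 1.18 TPM, the median 53.5 TPM and the highest 401 TPM. The levels nearest the threshold were 1.18, 1.97 and 2.14 TPM just inside it, against 0.759, 0.692 and 0.540 TPM just outside. Of the iHECs, 30 were listed at 0 and 21 were above 10 TPM. In between, 9 were above 0 and up to 1 TPM, and 5 were above 1 and up to 10 TPM. The share of Itga2b+ cells was 40% of iHECs (95% interval 28% to 52.9%). At day 14, 0 of 21 iHPCs were above 1 TPM, which allows a share of up to 14.3%, and all 21 were listed at 0. At day 17 the count was 0 of 18 cells, which allows up to 16.7%. At day 21 it was 3 of 56 cells (5.36%, interval 1.12% to 14.9%), with a highest level of 24.9 TPM.

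Itga2b lies on the minus strand of chromosome 11 in the mouse genome (GRCm38, chr11:102453297-102469883) and is protein-coding. The 250 bases before its annotated start are shown because factors that read such sequence, among them members of the GATA, RUNX and ETS families, are compared between the sides below. The sequence is that of RefSeq, build GRCm38.p6, minus strand, chr11:102469884-102470133, and capitals mark the letters AGGAAG.
Itga2b promoter: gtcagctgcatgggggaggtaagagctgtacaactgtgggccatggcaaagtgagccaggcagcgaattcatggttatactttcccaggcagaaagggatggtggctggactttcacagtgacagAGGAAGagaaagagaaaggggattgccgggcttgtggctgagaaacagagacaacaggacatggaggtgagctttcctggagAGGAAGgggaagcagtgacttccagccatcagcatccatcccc
The window searched ran on for 50 bases past the start, 300 in all, and both strands were read. For the ETS letters, CCGGAA or else AGGAAG, it held 2 matches, both of AGGAAG, starting 125 and 43 bases before the start. The same letters occurred in 45.2% of the 32851 RefSeq promoter windows of this length. The GATA letters were searched as AGATAA, next as AGATAG, then as TGATAA, and last as TGATAG, with 0 matches in the window and a match in 29.8% of all windows. The RUNX letters, TGTGGT or else TGCGGT, also had 0 matches, against 22.4% of all windows. Matches of this kind are common, and their presence or absence says only which letters stand in these bases.

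The Itga2b+ iHECs also had more genes detected. Between 3387 and 7533 genes were above 1 TPM in an Itga2b+ cell, with a median of 5757, and between 3309 and 7035 in an Itga2b- cell, with a median of 4705. The sides overlapped over nearly the whole range, and their medians were 1052 genes apart. Of the 33 iHECs with up to 4926 genes, 9 were Itga2b+ (27.3%, interval 13.3% to 45.5%). Of the 32 iHECs with 4974 or more, 17 were (53.1%, interval 34.7% to 70.9%). The number of genes detected thus moved with Itga2b, and its part in the differences below was not tested. The mean of the differences taken separately in these lower and upper strata of genes detected is called the within-strata difference, and it is given beside the difference over all cells or, for the largest differences, as a range over the genes. The strata reduce the gap and do not remove it, since medians still differed by 778 genes in the lower stratum and 493 in the upper.

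**Figure D1:**
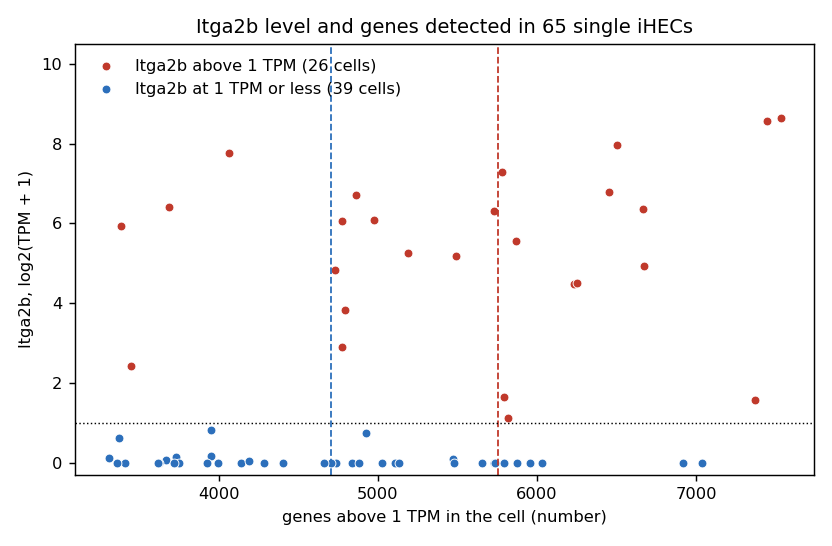
Itga2b as log2(TPM + 1) (y axis) against the number of genes above 1 TPM (x axis), with a point per iHEC. The dotted line is the threshold, and the dashed lines are the medians of 5757 genes in Itga2b+ and 4705 genes in Itga2b- cells.

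The sides were compared over 8549 genes, each detected above 1 TPM in more than 10 iHECs, with Itga2b left out. On the log2(TPM + 1) scale 1548 genes (18.1%) were higher by at least 1 in Itga2b+ cells and 119 (1.39%) were lower by at least 1. The median gene was itself 0.36 higher, and relative to it the counts were 721 higher and 379 lower. Within strata, 870 genes (10.2%) were higher and 328 (3.84%) lower, with a median of 0.12. With the linear trend over genes detected taken out of every gene, the counts were 399 and 370. The excess of higher over lower genes was much smaller both within strata and with the trend removed. Genes detected is itself counted from these values, so removing its trend draws the typical difference toward 0. Its part in the excess was not tested. Of the 1548 genes higher over all cells, 839 (54.2%) were also higher by at least 1 within strata, and of the 119 lower genes 111 were (93.3%).

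Single cells varied more than the sides differed. Of the 1667 genes past 1 in either direction, 128 (7.68%) differed by more than the smaller of their SDs between cells on the 2 sides. Only Il4ra, which encodes a chain of the interleukin-4 receptor and was picked out after its values were seen, differed by more than the larger. Its TPM ran from 0 through a median of 17.6 to 163 in Itga2b+ cells and from 0 through a median of 0 to 83.5 in Itga2b- cells, a difference of 2.60 (2.72 within strata). It was above 1 TPM in 18 of 26 Itga2b+ cells and in 4 of 39 Itga2b- cells. For all other genes named here the cells of the sides overlapped widely.

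The gene with the largest positive difference was Flt3l, which encodes the ligand of the Flt3 receptor of early blood cells. Its TPM was 0 at the lowest, 59.98 at the median and 359 at the highest in Itga2b+ cells, against 0, 0 and 178 in Itga2b- cells. Flt3l was above 1 TPM in 18 of 26 Itga2b+ (69.2%, interval 48.2% to 85.7%) and 8 of 39 Itga2b- cells (20.5%, interval 9.30% to 36.5%), a difference of 3.23 in mean level and of 3.29 within strata. The annotation places another gene on the same exon bases, so reads of Flt3l are uncertain.

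Next came Mad2l1, a part of the checkpoint that holds cells in mitosis until chromosomes are attached (3.07), and Cdk2ap1, an inhibitor of the kinase Cdk2 (3.01). They were followed by Zc3hc1 (3.0), Mapkapk3, a kinase downstream of p38 (2.98), and Gemin6, a member of the complex that assembles spliceosomal particles (2.95). The transcription factor Nfe2 stood at 2.93, ahead of Mrpl3 and Mrpl38, both proteins of the mitochondrial ribosome (2.84 each). The last of the 12 largest were Pafah1b3 (2.84), Sec61a2, of the channel that takes proteins into the endoplasmic reticulum (2.79), and the zinc transporter Slc30a6 (2.79). All 12 remained higher by more than 1 within strata, where their differences ran from 2.24 to 3.29. Mrpl3 and Sec61a2 share exon bases with neighbouring genes.

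Of the 12 genes lowest in Itga2b+ cells, 2 were on the list of endothelial genes, Emcn and Flt1. Prss23, which encodes a serine protease, had the most negative difference (-3.19), followed by the pseudogene Atp6v0c-ps2 (-3.11), whose reads may belong to its parent gene. Enpp2, the enzyme autotaxin that makes lysophosphatidic acid, differed by -2.50, and Emcn, the endothelial surface mucin endomucin, by -2.42. The others were Fam89a (-2.13), Igfbp3, a binding protein of insulin-like growth factors (-2.09), Gpihbp1, which anchors lipoprotein lipase on capillary endothelium (-2.08), and Flt1, a receptor of vascular endothelial growth factor (-1.96). The list ended with the adaptor Nedd9 (-1.87), the small GTPase Arf2 (-1.82), Pdia5 (-1.81) and the adaptor Sh2d3c (-1.75). All 12 stayed lower within strata, between -3.24 and -1.91. Prss23, Enpp2, Nedd9 and Sh2d3c share exon bases with other annotated genes.

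**Figure D2:**
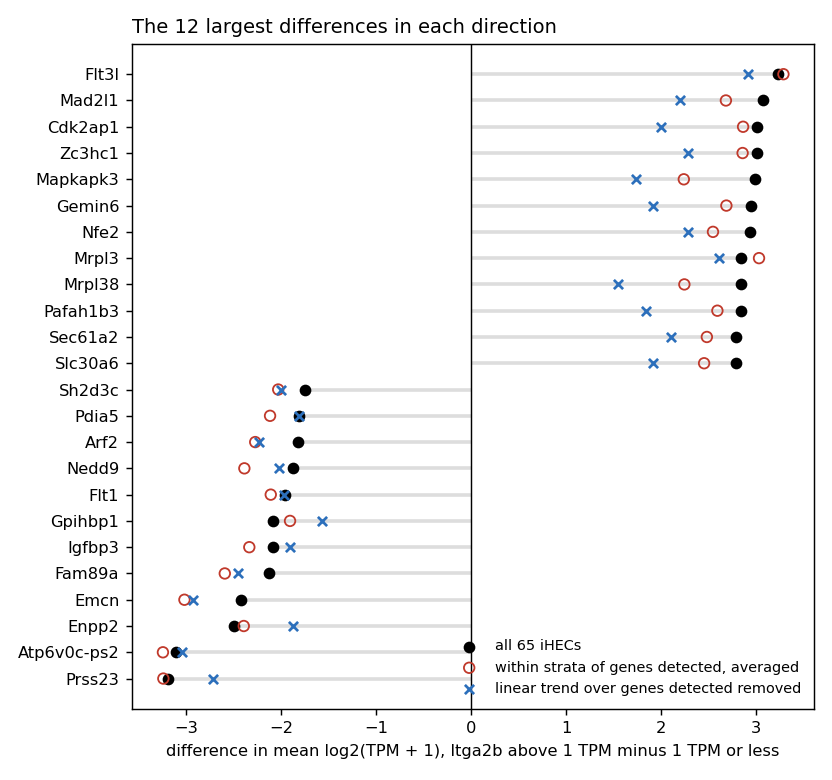
Difference in mean log2(TPM + 1) between Itga2b+ and Itga2b- iHECs (x axis) for the 12 genes with the largest difference in each direction. Filled points are over all 65 iHECs, open circles within strata of genes detected and crosses after removal of the linear trend over genes detected, and all 3 fall on the same side of 0 for every gene shown.

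Of the 29 blood transcription factors listed, 22 were compared and 6 were higher by at least 1 in Itga2b+ cells, with none lower. Within strata 5 were higher, Gata2 being the one that was not. Over all genes compared, 18.1% were higher by at least 1 (10.2% within strata). The median difference of the list was 0.26 (0.30 within strata), below the 0.36 of all genes over all cells and above their 0.12 within strata. Over all cells the differences thus lay in a few members and not in the list as a whole.

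Gfi1 encodes a repressor that helps to shut the endothelial program during the formation of blood. Its TPM was 0 at the lowest, 0.184 at the median and 204 at the highest in Itga2b+ cells, against 0, 0 and 50.8 in Itga2b- cells. Gfi1 was above 1 TPM in 12 of 26 Itga2b+ cells (46.2%, interval 26.6% to 66.6%) and 3 of 39 Itga2b- cells (7.69%, interval 1.62% to 20.9%), with a difference in mean level of 2.26 (1.89 within strata). Read the other way, 12 of the 15 iHECs with Gfi1 were Itga2b+ (80%, interval 51.9% to 95.7%), and 14 of the 50 without it (28%, interval 16.2% to 42.5%). Gfi1 (chr5:107716655-107725805) shares exon bases with an antisense transcript, and whether strand was used in counting is not stated.

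Nfe2, a factor of megakaryocytes and red cells, had a median of 44.3 TPM and a highest value of 323 TPM in Itga2b+ cells, against 0 and 372 TPM in Itga2b- cells. It was above 1 TPM in 16 of 26 (61.5%, interval 40.6% to 79.8%) against 9 of 39 cells (23.1%, interval 11.1% to 39.3%). The mean level was 4.12 ± 3.70 against 1.19 ± 2.51 (SD between cells), a difference of 2.93 (2.55 within strata). The sides had like highest values and differed more in how many cells had the transcript.

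Lmo2, a bridging protein in the blood stem cell complex of factors, had medians of 91.5 TPM in Itga2b+ and 11.2 TPM in Itga2b- cells, with highest values of 414 and 345 TPM. It was above 1 TPM in 23 of 26 and 22 of 39 cells, a difference in mean level of 2.0. This gap was 3.12 in the lower stratum of genes detected and 0.48 in the upper. Meis1, a partner of Hox proteins, had medians of 31.8 and 0.217 TPM and highest values of 133 and 181 TPM. It was above 1 TPM in 19 of 26 and 17 of 39 cells and differed by 1.68 (1.56 within strata), and it too shares exon bases with other annotated transcripts.

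Mycn was present on both sides, in 24 of 26 and 34 of 39 cells, and differed by 1.16 (1.03 within strata) through its level, with medians of 176 and 64.7 TPM. Gata2, which is needed for the emergence of blood stem cells, was above 1 TPM in 13 of 26 and 13 of 39 cells, and its difference of 1.02 was 0.67 within strata and 0.46 with the trend over genes detected removed. Tal1, a master factor of early blood, was above 1 TPM in 6 of 26 (23.1%) and 7 of 39 cells (17.9%). The exact intervals of the shares overlapped for Gata2, Tal1, Mycn, Lmo2 and Meis1.

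Of the transgene factors, Runx1 differed little between the sides, while the difference of Hoxa9 changed with the setting. Runx1 had a median of 39.2 TPM (highest 240 TPM) in Itga2b+ and 47.1 TPM (highest 191 TPM) in Itga2b- cells, a difference of 0.26, and of 0.00 within strata. Hoxa9 had medians of 60.4 and 84.6 TPM and differed by -0.14 (-0.63 within strata). With the trend over genes detected removed its difference was -0.85, and with the split at 10 TPM it was 0.23. Both were above 1 TPM in most cells of either side, Runx1 in 23 of 26 and 36 of 39, Hoxa9 in 22 of 26 and 33 of 39. Sfpi1, the gene of the myeloid and lymphoid factor PU.1, was above 1 TPM in 9 of 26 Itga2b+ (34.6%, interval 17.2% to 55.7%) and 14 of 39 Itga2b- cells (35.9%, interval 21.2% to 52.8%), and 39.1% of the 23 iHECs with Sfpi1 were Itga2b+ against 40.5% of the 42 without.

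**Figure D3:**
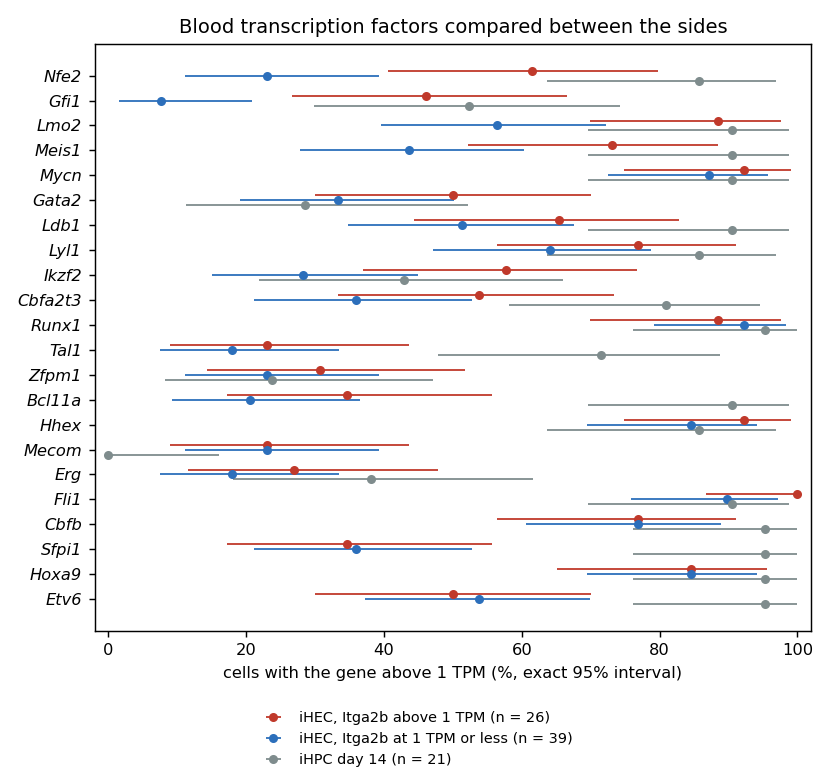
Share of cells above 1 TPM (x axis, %, with exact 95% interval) for the 22 blood transcription factors compared, ordered by their difference in mean level. Nfe2 and Gfi1 stand at 61.5% and 46.2% of Itga2b+ iHECs (red) against 23.1% and 7.69% of Itga2b- iHECs (blue), with day-14 iHPCs in grey.

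Gfi1, Nfe2, Meis1 and Lmo2, a set of 4 put together after their values were seen, were counted in the same cells. All 4 were above 1 TPM in 7 of 26 Itga2b+ cells (26.9%, interval 11.6% to 47.8%) and in 0 of 39 Itga2b- cells, which allows a share of up to 7.69%. None or 1 of them was above 1 TPM in 2 Itga2b+ and 24 Itga2b- cells. The 7 cells with all 4 lay in the upper stratum of genes detected, which held 17 Itga2b+ and 15 Itga2b- cells. The columns iHEC_5 and iHEC_6, with near-equal values, were both among these 7. As the members were put together for their differences, this count describes the cells and is no further evidence.

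**Figure D4:**
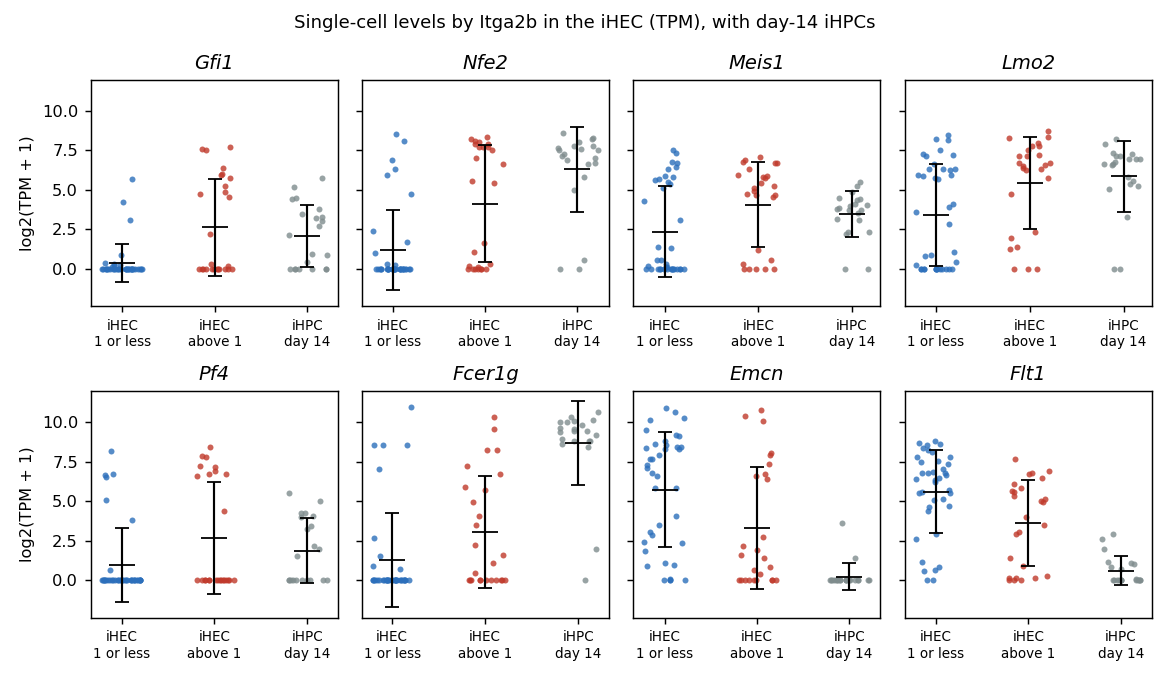
Level of 8 genes as log2(TPM + 1) (y axis) in single Itga2b- iHECs (blue), Itga2b+ iHECs (red) and day-14 iHPCs (grey), with mean and SD between cells as bars. Gfi1 is above 1 TPM in 12 of 26 Itga2b+ against 3 of 39 Itga2b- cells, while Emcn and Flt1 have higher means in Itga2b- cells (5.72 and 5.6) than in Itga2b+ cells (3.31 and 3.64).

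Itgb3, the partner with which CD41 forms its receptor, was above 1 TPM in 21 of 26 Itga2b+ cells (80.8%, interval 60.6% to 93.4%) and 29 of 39 Itga2b- cells (74.4%, interval 57.9% to 87.0%). Its median was 48.8 TPM (highest 265 TPM) against 23 TPM (highest 156 TPM), a difference of 0.97 in mean level and of 0.71 within strata. Transcripts of the partner were thus common on both sides, and 29 iHECs had Itgb3 without Itga2b.

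Of the 18 genes listed for the CD41 partner, its ligands and the platelet surface, 6 were compared. Over all cells 1 was higher by at least 1 in Itga2b+ cells and 0 were lower, and within strata 0 were higher and 1 lower. Clec1b, the receptor CLEC-2 of platelets, differed by -0.94 (-1.30 within strata), and Vwf, the von Willebrand factor made by endothelium and platelets, by -0.89 (-0.69 within strata). The median of the 6 genes was -0.31 (-0.27 within strata), against 0.36 (0.12 within strata) for all genes compared. Of all genes compared, 18.1% were higher and 1.39% lower by at least 1 (10.2% and 3.84% within strata). Gp9, a part of the platelet receptor for von Willebrand factor, was too rare to be compared and was above 1 TPM in 4 Itga2b+ and 0 Itga2b- cells.

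Of 19 megakaryocyte genes 8 were compared, and 5 were higher by at least 1 in Itga2b+ cells, among them Nfe2, Plek, Rab27b and Pf4. Their median was 1.49 (1.11 within strata, where 4 were higher and Clec1b was lower by at least 1). Among all genes compared, 18.1% were higher by at least 1 (10.2% within strata), with medians of 0.36 and 0.12. Rab27b, a GTPase of platelet granules, was above 1 TPM in 15 of 26 and 8 of 39 cells (1.73, and 1.82 within strata). Pf4, the chemokine platelet factor 4, had a median of 0 TPM on both sides and highest values of 336 and 291 TPM, and was above 1 TPM in 10 of 26 against 6 of 39 cells (1.72, and 1.34 within strata). Plek, the protein kinase C substrate pleckstrin, was above 1 TPM in 13 of 26 and 5 of 39 cells (1.86, and 1.45 within strata). That gap was 0.05 in the lower stratum and 2.85 in the upper, and Plek shares exon bases with a neighbour. Ppbp, Gp5, Gp6, Treml1, Tubb1 and Gata1, 6 further genes of the list, were above 1 TPM in none of the 65 iHECs.

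Inside the cell, integrins are switched on by adaptor proteins, of which 20 of 24 listed genes were compared. Fermt3 (kindlin-3, the blood form of the activator that binds integrin tails) was above 1 TPM in 19 of 26 and 17 of 39 cells. It differed by 2.20 (1.56 within strata) and shares exon bases with Trpt1. The focal adhesion adaptor Pxn (paxillin) was higher by 1.38 (1.17 within strata), and the list's median was 0.41 (0.13 within strata), near that of all genes. Of all genes compared, 18.1% were higher and 1.39% lower by at least 1 (10.2% and 3.84% within strata). Of 18 other integrin genes 8 were compared, and 1 was past 1 in either direction. This was Itgav, integrin alpha V, which also pairs with beta 3, and it was lower in Itga2b+ cells (-1.40, and -1.53 within strata). Itgav shares exon bases with another annotated transcript.

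Endothelial genes stood lower in Itga2b+ cells as a list. Of 30, 29 were compared, none was higher and 4 were lower by at least 1 (5 within strata), and the median was -0.40 (-0.51 within strata) against 0.36 for all genes. Among all genes compared, 1.39% were lower by at least 1 (3.84% within strata). Emcn had a median of 1.84 TPM and a highest value of 1733 TPM in Itga2b+ cells, against 133 and 1926 TPM in Itga2b- cells. It was above 1 TPM in 14 of 26 (53.8%, interval 33.4% to 73.4%) and 32 of 39 cells (82.1%, interval 66.5% to 92.5%), and differed by -2.42 (-3.02 within strata). Cells with high Emcn occurred on both sides, and 12 of the 19 iHECs without Emcn were Itga2b+ (63.2%, interval 38.4% to 83.7%), against 14 of the 46 with it (30.4%, interval 17.7% to 45.8%).

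Flt1 had medians of 22.4 and 82.6 TPM and highest values of 205 and 450 TPM, and differed by -1.96 (-2.11 in either stratum). Flt4, the receptor of the lymphatic growth factors VEGF-C and VEGF-D, differed by -1.38 (-1.42 within strata) at medians of 16.9 and 65.4 TPM. The transcription factor Ets1 differed by -1.06 (-1.24 within strata) and was above 1 TPM in 24 of 26 and 36 of 39 cells. The differences of these genes were larger in size relative to the median gene, at -2.32 for Flt1, -1.74 for Flt4 and -1.42 for Ets1.

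The endothelial identity genes were shared. Cdh5 had medians of 40.6 and 68.9 TPM and differed by -0.42 (-0.41 within strata), Pecam1 had medians of 183 and 285 TPM and differed by -0.55 (-0.79 within strata), and Kdr, the main receptor of vascular endothelial growth factor, differed by -0.14 (-0.33 within strata). Each was above 1 TPM in at least 25 of the 26 Itga2b+ cells. Of the other genes of the gate, Kit differed by 0.07 and Procr (CD201) by 0.17, and within strata the sign turned, to -0.27 and -0.40. Of 10 arterial and Notch genes compared, only Nrp1 was past 1 over all cells (-1.10, and -1.21 within strata), while within strata the Notch target Hes1 was also past 1, in the other direction (1.04, and 0.96 over all cells). The 2 of 6 venous genes past 1, Emcn and Flt4, are also on the endothelial list. None of 13 genes of bone morphogenetic protein and transforming growth factor beta signalling was past 1. Of all genes compared, 18.1% were higher and 1.39% lower by at least 1 (10.2% and 3.84% within strata).

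Of 11 genes compared from a list of hemogenic endothelium and precursors of blood stem cells, 4 were higher by at least 1 (3 within strata) and none lower, where 18.1% of all genes were higher (10.2% within strata). The median of the list was 0.50 (0.28 within strata). Beside Gfi1 and Mycn these were Gpr56, an adhesion receptor of blood stem cells, and Cd44, a receptor of hyaluronan. Gpr56 was above 1 TPM in 12 of 26 and 7 of 39 cells and differed by 1.81 (1.29 within strata, with 0.13 in the lower stratum and 2.46 in the upper). Cd44 was above 1 TPM in 21 of 26 and 21 of 39 cells and differed by 1.41, but by -0.35 in the lower stratum and 1.91 in the upper.

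Of 18 compared genes of leukocyte signalling and cytoskeleton, 5 were higher and 1 lower by at least 1, and within strata 2 were higher and 1 lower. Of all genes compared, 18.1% were higher and 1.39% lower over all cells, and 10.2% and 3.84% within strata. Within strata the list's share of higher genes lay near that of all genes. The list's median was 0.65 over all cells and 0.36 within strata, against 0.36 and 0.12 for all genes. Fcer1g, the common gamma chain of Fc receptors, had a median of 1.58 TPM (highest 1282 TPM) in Itga2b+ and 0 TPM (highest 1970 TPM) in Itga2b- cells. It was above 1 TPM in 14 of 26 (53.8%) and 7 of 39 cells (17.9%), a difference of 1.80 (1.61 within strata). Alox5ap, which activates leukotriene synthesis, differed by 1.59 (1.26 within strata), and Alox5, the enzyme it activates, by 1.13 (0.69 within strata). Without the cells lacking Cdh5 or with Ptprc, Fcer1g differed by 1.47, Alox5ap by 1.52 and Alox5 by 0.88. Laptm5 differed by 1.40 and Ptpn6 (the phosphatase SHP-1) by 1.17, yet their within-strata differences were 0.68 and 0.37, and that of Laptm5 was -0.13 with the trend removed. The actin bundler Lcp1 was lower in Itga2b+ cells (-1.06, and -1.61 within strata), being above 1 TPM in 24 of 26 and 38 of 39 cells. Alox5ap and Ptpn6 share exon bases with antisense transcripts.

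Markers of other blood cells were looked at in the same way, beside the shares over all genes compared. Those were 18.1% higher and 1.39% lower by at least 1 (10.2% and 3.84% within strata). Of 14 erythroid genes 4 were compared, and Car2 (carbonic anhydrase 2), Blvrb (biliverdin reductase B) and the transferrin receptor Tfrc were higher by 2.1, 2.03 and 1.38 (2.23, 2.06 and 1.04 within strata), while the erythropoietin receptor Epor was lower (-1.11, and -1.16 within strata). Car2 was above 1 TPM in 26 of 26 Itga2b+ and 31 of 39 Itga2b- cells. No globin gene, nor Alas2 of heme synthesis, was above 1 TPM in any iHEC. Of 18 genes of neutrophils, monocytes and macrophages 3 were compared and 0 were past 1. The most frequent was Fcgr3, an Fc receptor, in 14 of 26 and 25 of 39 cells, and the granule genes Mpo and Elane were above 1 TPM in 0 iHECs. Of 14 T and innate lymphoid genes 4 were compared. Gata3, also a factor of T cells, was higher by 1.03 (0.63 within strata) and shares exon bases with other annotated genes. Cd3e and Il7r were above 1 TPM in 0 iHECs. Of 8 B lymphoid genes only Cd79b was compared (-0.26, and -0.76 within strata), and Cd79a and Pax5 were above 1 TPM in 0 iHECs. Genes of stromal cells (12) and of mast cells and basophils (10) were all too rare to be compared.

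Cell cycle genes had higher means in Itga2b+ cells, and less so within strata or with the trend over genes detected removed. The sides overlapped widely. A cell had a median of 4 of the 20 G2 and M phase genes above 1 TPM among Itga2b+ cells (0 to 20). Among Itga2b- cells the median was 3 (0 to 18). The mean level over this list was 2.23 ± 2.84 against 1.07 ± 1.49 (SD between cells). Of 17 compared genes of G2 and M phase 13 were higher by at least 1 over all cells, and 4 within strata, with medians of 1.2 and 0.70. Over all genes compared, 18.1% were higher by at least 1 (10.2% within strata), with medians of 0.36 and 0.12. Of 17 S phase genes 7 were higher and 1 lower, and 4 and 1 within strata, with medians of 0.96 and 0.41. The lower one was Slbp, which binds histone transcripts (-1.30, and -1.94 within strata). Cdk1, the kinase that drives entry into mitosis, was above 1 TPM in 23 of 26 and 25 of 39 cells and differed by 2.01, but by 0.30 in the lower stratum and 2.57 in the upper. Mcm5, of the helicase that opens replication origins, was above 1 TPM in 13 of 26 and 7 of 39 cells and differed by 1.94 (1.71 within strata). With the trend over genes detected removed, the mean difference over the S phase list fell from 0.70 to 0.03. That of the G2 and M phase list fell from 1.15 to 0.45. As genes detected also moved with Itga2b, its part in the cell cycle values was not tested.

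The remaining lists showed little. None of 17 immediate early and stress genes or of 6 interferon response genes was past 1, with medians of -0.05 and -0.02. Of all genes compared, 18.1% were higher and 1.39% lower by at least 1 (10.2% and 3.84% within strata). Of 16 glycolysis genes 1 was, the lactate transporter Slc16a3 (1.93, and 1.31 within strata), and of 9 commonly used reference genes 1, Hprt (1.78, with 3.38 in the lower stratum and -0.26 in the upper). A difference of this size in a reference gene that most cells express shows how far single genes of these libraries varied between the sides.

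**Figure D5:**
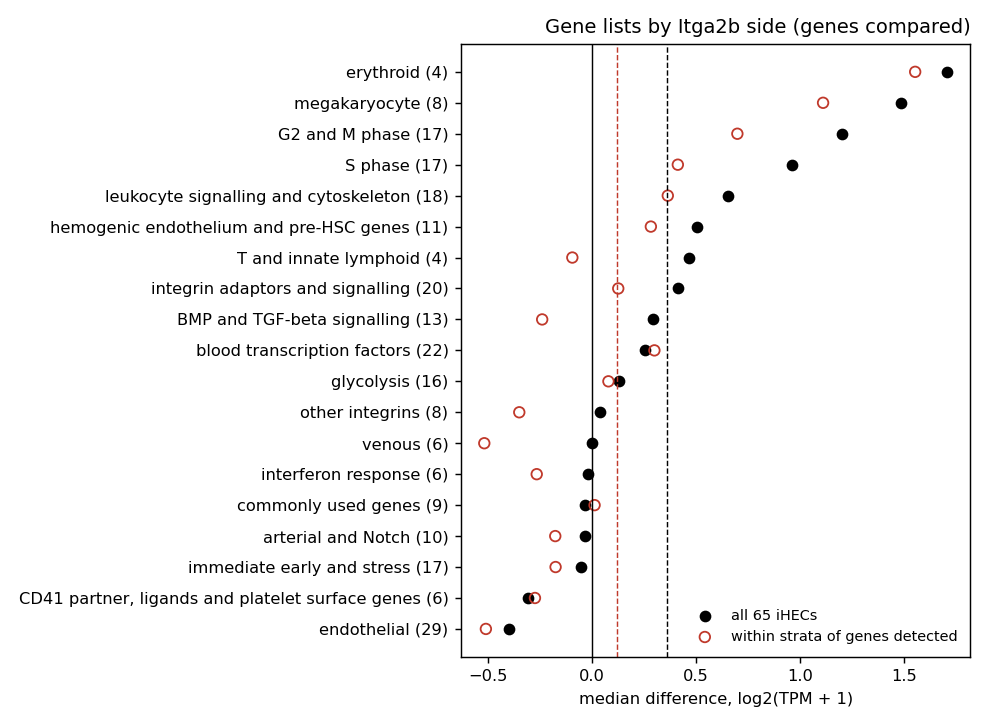
Median difference in mean log2(TPM + 1) between Itga2b+ and Itga2b- iHECs (x axis) of each gene list with more than 3 genes compared (number in brackets), over all cells (filled) and within strata of genes detected (open). Dashed lines mark the medians of all 8549 genes, 0.36 (black) and 0.12 (red), with megakaryocyte genes at 1.49 and endothelial genes at -0.40.

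Beside the iHPCs of day 14, in which Itga2b was listed at 0 throughout, the genes with higher values in Itga2b+ iHECs showed no common pattern. Nfe2 and Lmo2 were above 1 TPM in 18 and 19 of 21 day-14 cells, Gfi1 in 11 and Fcer1g in 20. Rab27b and Flt3l, by contrast, were above 1 TPM in 1 and 4 of 21. Of the genes lower in Itga2b+ iHECs, Emcn was above 1 TPM in 2 of 21 day-14 cells, Flt4 and Gpihbp1 in 0, and Nedd9 and Sh2d3c in 16 and 18. These are values of separate single samples, placed side by side without a test. As iHECs were sorted as CD45- and day-14 iHPCs as CD45+, day and gate cannot be told apart here.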

How the data were processed

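Single cells were sorted, and the authors amplified their cDNA and sequenced it. The labels and the methods name sequencers of different families, HiSeq and NextSeq, and which applies was not settled. According to the methods, HISAT2 mapped reads to mm10. The submitters' processing notes list HISAT2 2.1.0, SAMtools 0.1.19, StringTie 1.3.4 and bcl2fastq. The authors deposited a single table of StringTie TPM values per gene and cell. TPM is scaled to a fixed total within each cell and keeps no read counts, so depth is unknown, and the gene annotation and the use of strand are not given in the sources used here. The table had 23420 rows, 0 of its cell columns were left unused, 23 names had been turned into dates and none of those was named.

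Values were log2(TPM + 1), and a gene counted as detected above 1 TPM. Cells were split by Itga2b at 1 TPM, and the difference of the means of the sides was taken for genes above 1 TPM in more than 10 of 65 iHECs. Differences of at least 1 were counted as a description. Differences were repeated within the lower and upper stratum of genes detected (cells up to and above the median of 4926) and averaged, and on residuals of a linear fit of each gene on genes detected. No test, p-value or SE was computed because cells are not replicates. Doublets were not called, because cells were sorted singly. Intervals are exact Clopper-Pearson 95% intervals, and a count of 0 cells was given an upper limit of 3 cells of the group.

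Genes named were the markers of the cell label, the gate genes, Hoxa9, Itgb3, Sfpi1, the 12 largest differences in each direction, in each list up to 5 members past 1 (or, where none was, the 2 most abundant) and the most frequent markers of other cell types. A few genes that this rule covers are not reported here. Other genes named were picked after their values were seen. Members and lists were chosen with earlier results of these data known. Of 370 list genes, 368 were in the table, 5 under an older symbol (such as Sfpi1 for Spi1 and Gpr56 for Adgrg1). Positions are from a GRCm38 annotation, in which Runx1, Hoxa9 and Nrp1 also share exon bases with other annotated genes. The steps were tested on simulated data. Alternatives were pseudocounts of 0.1 and 10, splits above 0 and at 10 TPM, other filters, size factors, the strata, the trend, and leaving out cells. Python 3.11.15, numpy 2.4.6, pandas 2.3.3 and scipy 1.17.1 were used.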

Additional observations from a re-analysis of the deposited data

How the results depend on the processing

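With the split above 0 TPM instead of 1 TPM, 53.8% of iHECs had Itga2b. Genes higher by at least 1 in Itga2b+ cells numbered 2937 with a pseudocount of 0.1 and 200 with 10, 870 within strata, 399 with the trend removed, 721 relative to the median gene and 885 with a filter of more than 30 iHECs. Genes lower by at least 1 numbered 291, 17, 328, 370 and 379 under the first 5 of these, and 292 without the 14 cells whose Itga2b was above 0 and up to 10 TPM. Relative to the median gene the stromal and the mast cell lists stood at -0.36 and -0.32, since members near 0 TPM take on the shift of 0.36. Of the 63 genes named that differed by at least 1, 62 kept their direction under all 9 alternatives run on single genes, and 52 stayed past 1 within strata. The exception, Laptm5, stood at -0.13 with the trend removed. The relative centring and the left-out cells were chosen after seeing the data. Unknown depth and 1 sample per group limit every value. No paired analysis was possible because the result comes from no test and the cells carry only numbers.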

Other observations

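Gene families outside the lists above were chosen after seeing the data. Of 76 mitochondrial ribosomal protein genes, 22 were higher by at least 1 in Itga2b+ iHECs and 0 were lower, and within strata 17 were higher and 1 lower, with medians of 0.49 and 0.32. Of all genes compared 18.1% were higher (10.2% within strata), with medians of 0.36 and 0.12. Of 81 cytosolic ribosomal protein genes compared 1 was higher over all cells and 0 within strata, with medians of 0.16 and 0.19, and the difference between these families was not tested. Of 36 subunits of respiratory complex I 1 was higher, and of 35 proteasome subunits 4 were, with a list median of 0.19 over all cells and -0.02 within strata. All 6 genes of the mini-chromosome maintenance helicase were compared, and 5 were higher by at least 1 over all cells and 2 within strata. Of 44 collagen genes 3 were compared and 0 were past 1. The part of genes detected in these values was not tested.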
